A study of Mus musculus with 7 samples.

Results

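Fatty acid oxidation in liver was followed through 38 genes, listed by symbol and divided over the steps of the pathway, namely activation, the carnitine shuttle, mitochondrial beta-oxidation, peroxisomal beta-oxidation and ketone bodies. Of these, 35 were measured, each read from the brightest probe set that carries its symbol alone, among 35556 probe sets on the array. Acsl1 was not matched to a probe set here, and Acsl3 and Cpt1b were left out because their probe sets also carry the symbol of another gene. Liver RNA came from 7 male littermates of the C57BL/6 background, each on its own array. Controls, 4 mice, had 1 floxed and 1 wildtype Trpm6 allele (Trpm6 fl/+) and no Cre. The 3 Trpm6-deficient mice (Trpm6 Δ17/Δ17; Sox2-Cre) lacked exon 17 of both alleles. Controls 1 and 2 and Trpm6-deficient 2 were 12 weeks old, and controls 3 and 4 and Trpm6-deficient 1 and 3 were 13 weeks old. Sox2-Cre, inherited from the father, recombines in the epiblast and not in extraembryonic tissues. The latter kept the floxed allele of the mother beside the Δ17 allele of the father. In the body itself Trpm6 was deleted throughout. A change in liver therefore cannot be placed in the liver itself, and the deletion cannot be told apart from the Cre transgene, which only the Trpm6-deficient group carried. The feeding state of these mice and the hour of collection are not given in the sources used here.

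Fatty acids are burned in hepatocytes after a ligase has joined them to coenzyme A. Long chains are then loaded onto carnitine, carried across the inner mitochondrial membrane and returned to coenzyme A, and each round of beta-oxidation removes an acetyl unit by a dehydrogenation, a hydration, a second dehydrogenation and a thiolytic cleavage. Very long and branched chains are shortened first in peroxisomes, by separate enzymes. Hepatocytes turn surplus acetyl-CoA into ketone bodies, and many genes of the pathway are targets of PPARA, a nuclear receptor that responds to fatty acids. The comparison asks whether the transcripts of these steps differed between Trpm6-deficient and control livers, in a study that examined how Trpm6-deficient mice use long-chain acylcarnitines.

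Values below are log2 expression values, and a change is the mean of the Trpm6-deficient livers minus the mean of the control livers, with its standard error (SE) from limma. A gene was said to rise or fall at an adjusted p of 0.1 or less over all probe sets. The labelled tissue carried its markers: 8 of 10 listed hepatocyte genes were measured, with values of 13.10 to 14.43 on all 7 arrays, and none of them passed an unadjusted p of 0.05. Trpm6, the targeted gene, was dim, with a mean of 5.51 in control and 5.46 in Trpm6-deficient livers, below every array median. Its change was -0.05 (SE 0.05, adjusted p = 0.882 from limma). From so low a level a loss could hardly show, and a probe set outside the deleted exon would not read the deletion. The array medians lay between 6.43 and 6.48, and every measured member had a mean above them, the dimmest being Acad12 at 6.67. Differences in a bulk sample cannot be divided between fewer cells of a type and less RNA per cell.

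Transcripts of fatty acid oxidation had changes of both signs in Trpm6-deficient livers, 14 positive and 21 negative. Of the 35, 1 rose, 0 fell and 34 did not pass at an adjusted p of 0.1 from limma, where 0.129% of all probe sets passed. At an unadjusted p of 0.05 or less, 6 were higher, where 3.85% of all probe sets were, and 4 were lower, where 3.03% were. The 10 make up 28.6% of the members. Among the 11910 probe sets with 1 symbol and at least the brightness of the dimmest member the share was 10.8%. The members were chosen with earlier results of these data known, so these shares are no independent test of the pathway. The groups did not overlap for 9 members, 6 higher and 3 lower, where 2.94% and 2.38% of all probe sets were apart in these directions. The median log2 change of the members was -0.07 (0.06 without Trpm6-deficient 3), beside 0.00 over all probe sets, and single changes ran from -0.46 to 0.64. By size, the median absolute change was 0.13 for the members and 0.08 for all probe sets. The members were also the more variable among control livers, with a median SD of 0.16 against 0.13.

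**Figure D1:**
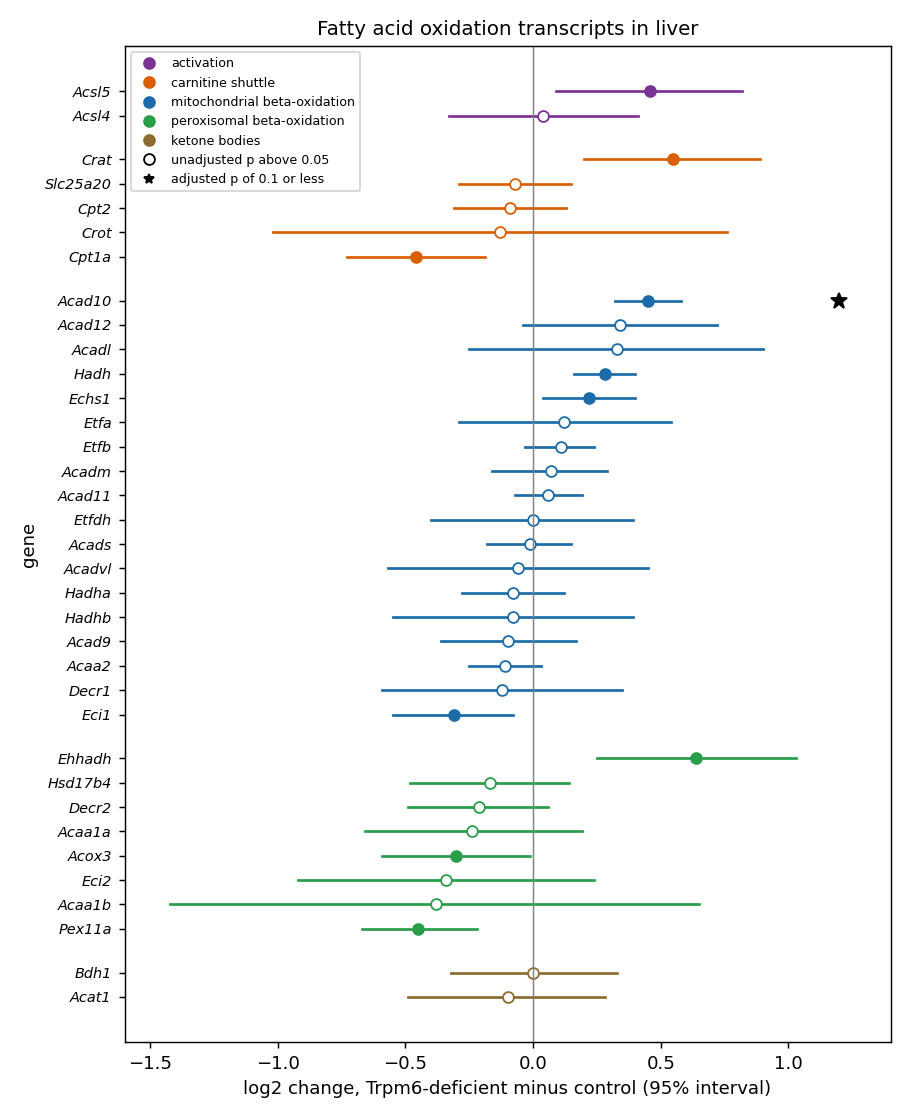
Log2 change of the 35 measured genes (Trpm6-deficient, n = 3, minus control, n = 4) on the horizontal axis, with a point per gene and the 95% interval from limma as a line. Colours give the steps, filled points those with unadjusted p at or under 0.05, and the star at the right margin an adjusted p of 0.1 or less. The steps with both signs among their filled points are the carnitine shuttle, mitochondrial and peroxisomal beta-oxidation.

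Activation was read through Acsl4 and Acsl5, ligases that join long-chain fatty acids to coenzyme A. Acsl5 had values of 11.91, 11.95, 11.37 and 11.75 in controls 1 to 4 and of 12.09, 12.19 and 12.32 in Trpm6-deficient 1 to 3. All Trpm6-deficient livers lay above all controls, with control 3 the lowest. Its log2 change was 0.46 (SE 0.15, adjusted p = 0.641 from limma), and it lost the unadjusted threshold without Trpm6-deficient 2 or Trpm6-deficient 3. Acsl4, which prefers arachidonic acid, had a log2 change of 0.04 (95% interval -0.33 to 0.41), and its groups overlapped.

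In the carnitine shuttle, the gene of the entry step lay lower and a gene for short-chain acylcarnitines lay higher, while the others differed by less than their spread. Cpt1a encodes the carnitine palmitoyltransferase of the outer membrane, the rate-limiting step of long-chain oxidation. It was measured at 12.03, 12.36, 12.40 and 12.24 in controls 1 to 4 and at 11.94, 11.80 and 11.65 in Trpm6-deficient 1 to 3. Every Trpm6-deficient liver lay below every control, the nearest being control 1. The log2 change was -0.46 (SE 0.11, adjusted p = 0.432 from limma), or 1.38-fold lower, and it passed the unadjusted threshold without each of the 7 livers in turn.

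Cpt2 encodes the transferase of the inner membrane, which moves long chains from carnitine back to coenzyme A. Its values were 11.81, 11.81, 11.62 and 11.67 in control and 11.74, 11.71 and 11.46 in Trpm6-deficient livers. The groups overlapped, with Trpm6-deficient 3 the lowest. The 95% interval of its log2 change ran from -0.31 to 0.13, and the change itself was -0.09 (adjusted p = 0.892 from limma), or 0.00 without Trpm6-deficient 3. Slc25a20, the carrier that exchanges acylcarnitine for carnitine across the inner membrane, had an interval of -0.29 to 0.15.

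Crat encodes carnitine acetyltransferase, which exchanges acetyl and other short acyl groups between coenzyme A and carnitine. It was at 10.17, 10.51, 10.15 and 10.51 in control and at 10.64, 10.98 and 11.02 in Trpm6-deficient livers, again without overlap. Its log2 change was 0.55 (SE 0.14, adjusted p = 0.489), or 1.46-fold. Crot, the peroxisomal octanoyltransferase gene, could not be resolved. In controls it lay at 12.87, 12.68 and 12.77 except in control 3 at 11.61, and the 95% interval of its change ran from -1.02 to 0.76.

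**Figure D2:**
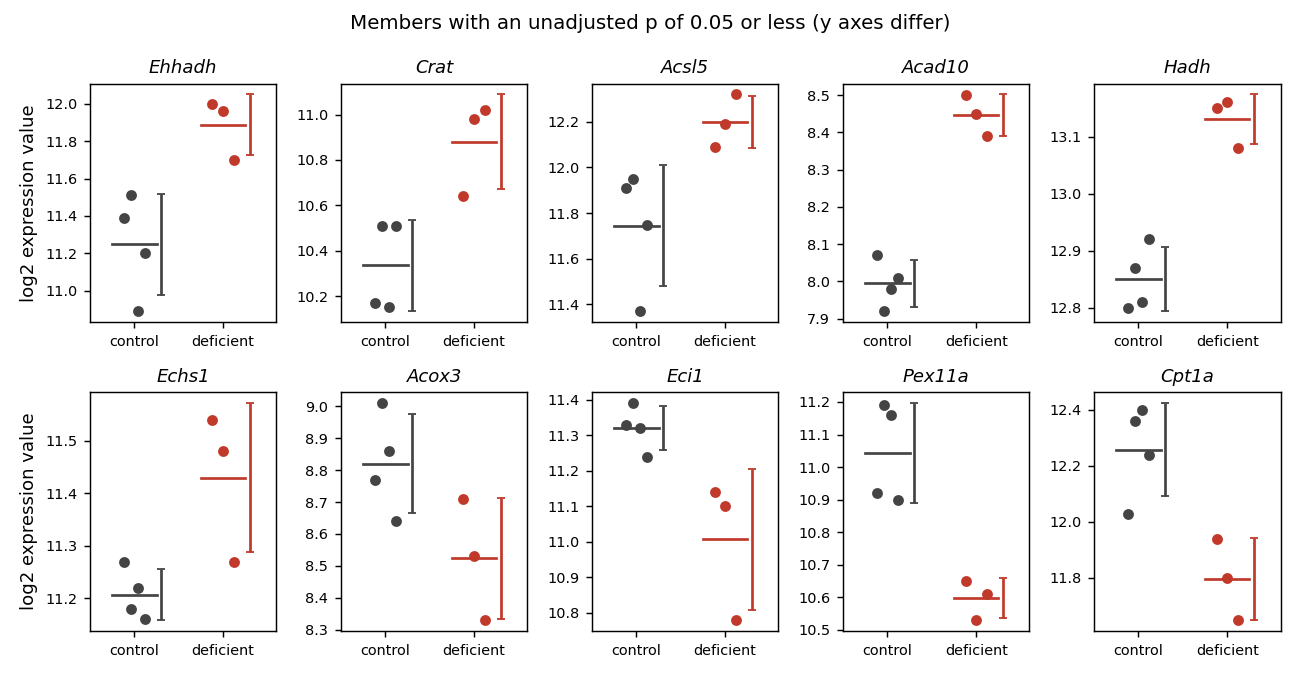
Log2 expression values of the 10 genes with an unadjusted p of 0.05 or less, with the 4 controls in black and the 3 Trpm6-deficient livers in red, with the group mean as a line and the SD as a bar beside it. The vertical axes differ between genes. The groups are apart for 8 genes and overlap for Acox3, while for Echs1 Trpm6-deficient 3 and control 1 share the value 11.27.

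Mitochondrial beta-oxidation held the gene that rose. Acad10 encodes an acyl-CoA dehydrogenase homologue, one of the family that opens each round of the cycle. It was at 8.07, 7.92, 7.98 and 8.01 in controls 1 to 4 and at 8.50, 8.45 and 8.39 in Trpm6-deficient 1 to 3. The groups were well apart and narrow, with an SD of 0.06 in each. It rose by 0.45 on the log2 scale (SE 0.05, adjusted p = 0.0903 from limma), or 1.37-fold, with a 95% interval of 0.32 to 0.58. The size held without each liver in turn (0.42 to 0.48), but the adjusted p was then 0.164 to 0.306. The lowest of these adjusted p came without Trpm6-deficient 1 and the highest without control 3. With all 7 arrays, the adjusted p from limma was 0.123 after quantile normalization and 0.191 with age as a covariate. It was 0.0702 with the filter on dim probe sets and 0.096 with array weights. The call thus depends on the number of arrays and also on the scaling and the fit.

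Acad10 lies beside its relative Acad12 in the RefSeq annotation of GRCm38.p6, and the span of Brap, on the other side, overlaps that of Acad10 by 41 bases. Acad12 lay at 6.62, 6.79, 6.25 and 6.43 in control and at 6.99, 6.98 and 6.61 in Trpm6-deficient livers. Only Trpm6-deficient 3 fell within the control range, and the log2 change of 0.34 (SE 0.16, adjusted p = 0.778) did not pass. Brap, a ubiquitin ligase gene, had a change of -0.42 (SE 0.22, adjusted p = 0.816) in the other direction. Aldh2, the mitochondrial aldehyde dehydrogenase gene on the far side of Acad12, had one of 0.09 (SE 0.07). Which bases the probes of Acad10 and Acad12 share was not examined, so cross-reading between these relatives was not tested.

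Of the other acyl-CoA dehydrogenases none was called. Acadm, Acads and Acadvl, the medium-chain, short-chain and very-long-chain enzymes, had log2 changes of 0.07, -0.01 and -0.06. For Acads the 4 controls lay within 0.04 of one another and the 95% interval of the change was -0.18 to 0.15. Acadl, the long-chain enzyme, was at 11.43 in control 1 and 10.71 to 10.76 in the other controls. Its Trpm6-deficient livers were at 11.63, 11.11 and 10.95, and the interval of -0.25 to 0.90 leaves its direction unresolved. Acad9, which also serves the assembly of respiratory complex I, had a change of -0.10, and Acad11, a dehydrogenase for long and hydroxylated chains, one of 0.06.

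The steps after the first dehydrogenation differed among themselves. Hadh, which encodes the 3-hydroxyacyl-CoA dehydrogenase of the matrix for shorter chains, was at 12.80, 12.87, 12.81 and 12.92 in control and at 13.15, 13.16 and 13.08 in Trpm6-deficient livers. The gap between the groups exceeded the range within either, yet the change of 0.28 (SE 0.05, adjusted p = 0.260 from limma) did not pass over all probe sets. Echs1, the short-chain enoyl-CoA hydratase gene, had values of 11.27, 11.18, 11.22 and 11.16 against 11.54, 11.48 and 11.27. Trpm6-deficient 3 equalled control 1, and the change was 0.22 (SE 0.07, adjusted p = 0.647). It lost the unadjusted threshold without control 2, control 4, Trpm6-deficient 1 or Trpm6-deficient 2.

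Eci1 encodes the enoyl-CoA isomerase that prepares unsaturated chains for the cycle, and it went the other way. Controls were at 11.33, 11.39, 11.32 and 11.24, and Trpm6-deficient livers at 11.14, 11.10 and 10.78. The groups did not overlap, Trpm6-deficient 3 was far below the other Trpm6-deficient livers, and the change was -0.31 (SE 0.10, adjusted p = 0.618), or -0.20 without Trpm6-deficient 3. Decr1, the dienoyl-CoA reductase gene of the same branch for unsaturated chains, had a change of -0.12 (95% interval -0.59 to 0.35). The matrix thiolase gene Acaa2 was at -0.11 (95% interval -0.25 to 0.03).

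Hadha and Hadhb, the subunits of the trifunctional protein that runs the later steps for long chains, had the same log2 change of -0.08. Their SEs were 0.08 and 0.19, and the groups overlapped for both. A further probe set of Hadhb gave -0.07 (SE 0.20). Etfa, Etfb and Etfdh, which pass the electrons of the first dehydrogenation to the respiratory chain, had changes of 0.12, 0.11 and 0.00. Of these Etfb was without overlap, at 12.65, 12.81, 12.77 and 12.82 in control and at 12.89, 12.87 and 12.85 in Trpm6-deficient livers, and its change did not pass at an unadjusted p of 0.05. Over the 18 mitochondrial genes, 9 changes were positive and 9 negative, with a median of 0.03.

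Hadha and Hadhb start head to head with 272 bases between their RefSeq starts, so the same stretch lies upstream of both. It is shown because their changes were equal, next to the upstream stretch of Ehhadh, the member with the largest change. The stretches are the 250 bases before the start of Hadha and of Ehhadh, in GRCm38.p6, and lie in no RefSeq gene. Both are read on the minus strand, which for Hadhb is the opposite strand, with GC boxes (GGGCGG on either strand) in capitals. The first is not counted from the start of Hadhb.
Hadha and Hadhb, chr5:30154981-30155230: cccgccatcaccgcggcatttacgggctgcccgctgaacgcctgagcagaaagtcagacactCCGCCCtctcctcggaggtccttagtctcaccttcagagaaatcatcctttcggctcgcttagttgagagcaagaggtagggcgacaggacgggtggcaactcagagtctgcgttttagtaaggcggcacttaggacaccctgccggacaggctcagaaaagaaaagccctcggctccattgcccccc
Ehhadh, chr16:21787835-21788084: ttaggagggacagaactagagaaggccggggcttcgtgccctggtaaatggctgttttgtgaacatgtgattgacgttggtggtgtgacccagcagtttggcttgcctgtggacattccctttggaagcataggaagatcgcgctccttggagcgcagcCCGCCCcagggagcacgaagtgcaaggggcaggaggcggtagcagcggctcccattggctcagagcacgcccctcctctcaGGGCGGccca

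RefSeq windows from 250 bases before to 50 after the start were found for 29 of the 35 measured members. A GC box lay in 22 of them, or 75.9%, against 35.7% of the 32851 windows of all genes, and the TATA box TATAAA in 0 of them against 13.6%. CCAAT, on either strand, lay in 12 (41.4%, against 37.4% of all). The half-site AGGTCA, which nuclear receptors including PPARA read, was in the windows of 4 members, or 13.8%, against 16.3% of all windows. A pair of half-sites of the form AGGNCA with 1 base between, the arrangement PPARA and RXRA bind, was in 0 member windows and in 0.381% of all. These are matches of letters on both strands within a short window and show no binding. Members were counted by gene and the comparison by window. No background of genes of like type or expression was used, so the shares are not a result about this pathway. The members with a half-site were Cpt1a, which lay lower, Echs1, which lay higher, and Acadm and Acadvl, whose groups overlapped. Their half-sites are shown in capitals (TGACCT is the half-site on the other strand), within 30 bases read 5′ to 3′ on the gene's strand in GRCm38.p6. The strand is plus for Cpt1a and minus for the others. The 250 bases before the start of Cpt1a overlap the annotated span of Cpt1a itself, and those of Echs1 overlap the span of Paox. Whether the 30 bases shown lie within these spans was not examined. The 250 bases of Acadm and of Acadvl overlap no RefSeq gene.
Cpt1a, chr19:3323195-3323224: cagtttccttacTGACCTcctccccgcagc
Echs1, chr7:140116487-140116516: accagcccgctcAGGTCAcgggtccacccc
Acadm, chr3:153944864-153944893: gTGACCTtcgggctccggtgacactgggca
Acadvl, chr11:70015498-70015527: atggatcaccctAGGTCAggtagaatacag

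Among the peroxisomal genes, 1 lay higher and the other 7 had negative changes. The median over the 8 was -0.27, and it was -0.06 without Trpm6-deficient 3 and -0.16 without control 1. Ehhadh encodes the bifunctional enzyme that hydrates and dehydrogenates straight chains, a classical PPARA target. It was at 11.39, 11.51, 10.89 and 11.20 in controls 1 to 4 and at 12.00, 11.96 and 11.70 in Trpm6-deficient 1 to 3. All Trpm6-deficient livers were above all controls. The change of 0.64 (SE 0.16, adjusted p = 0.455 from limma), or 1.56-fold, was the largest of the 35 members and did not pass. Hsd17b4, the bifunctional enzyme for branched chains, had one of -0.17 (95% interval -0.48 to 0.14).

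Pex11a encodes a membrane protein of peroxisome division that PPARA also induces. Its values were 10.92, 11.19, 11.16 and 10.90 in control and 10.65, 10.53 and 10.61 in Trpm6-deficient livers. The groups did not overlap and the Trpm6-deficient livers lay close together. The change was -0.45 (SE 0.09, adjusted p = 0.351), or 1.36-fold lower, and it passed the unadjusted threshold without each liver in turn. Acox3, an oxidase for branched chains, was at 8.77, 9.01, 8.86 and 8.64 against 8.71, 8.53 and 8.33, with Trpm6-deficient 1 inside the control range. Its change was -0.30 (SE 0.12, adjusted p = 0.712), or -0.20 without Trpm6-deficient 3, and it lost the unadjusted threshold without control 1, 2 or 3 or Trpm6-deficient 2 or 3.

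In the remaining peroxisomal genes Trpm6-deficient 3 was the lowest liver. Eci2, an enoyl-CoA isomerase, was at 10.13 to 10.40 in control and at 10.36, 9.97 and 9.29 in Trpm6-deficient 1 to 3. Acaa1b, a peroxisomal thiolase, was at 11.42, 10.69, 10.05 and 10.39 in control and at 10.90, 10.36 and 9.50 in Trpm6-deficient livers, the widest range of any member in either group. The other thiolase gene Acaa1a had 9.46, 9.20, 9.03 and 9.04 against 9.26, 8.97 and 8.61. In all 3 genes Trpm6-deficient 1 was within the control range, while Trpm6-deficient 2 lay below every control for Eci2 and Acaa1a and within their range for Acaa1b. Acaa1a and Acaa1b are close relatives whose probes may read each other's transcripts, which was not tested. Decr2, the peroxisomal dienoyl-CoA reductase gene, had a change of -0.21 (95% interval -0.49 to 0.06), with Trpm6-deficient 2 at 12.19 and Trpm6-deficient 3 at 11.86, below the controls at 12.24 to 12.42.

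Ketone body genes were read through Bdh1, which interconverts acetoacetate and 3-hydroxybutyrate, and Acat1, the mitochondrial acetoacetyl-CoA thiolase gene. Bdh1 was at 11.23, 11.33, 10.79 and 11.17 in control and at 11.21, 11.17 and 11.02 in Trpm6-deficient livers, so every Trpm6-deficient value lay within the control range. Its change was 0.00 (95% interval -0.32 to 0.33). Acat1 had a change of -0.10 (95% interval -0.49 to 0.28), with Trpm6-deficient 3 at 11.83 and the other Trpm6-deficient livers at 12.49 and 12.28. Smaller changes than these intervals span could not be resolved for either gene.

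**Figure D3:**
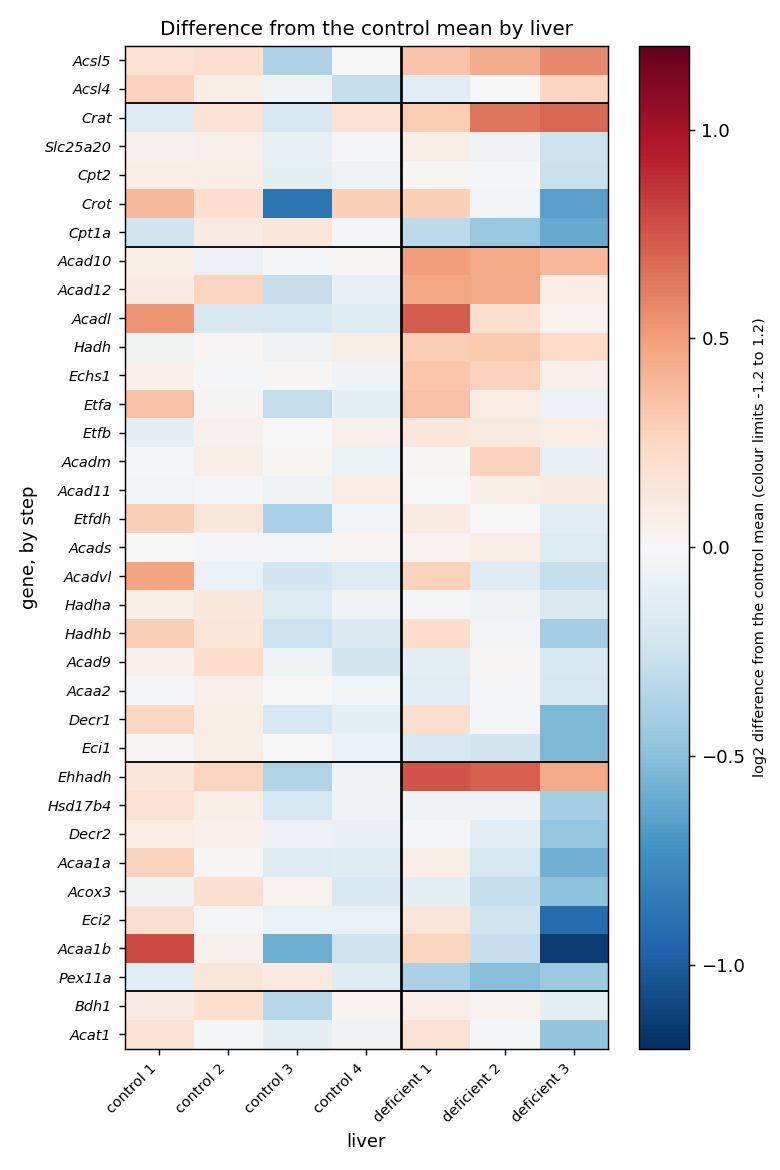
Log2 difference of each of the 35 genes (rows, by step) from its control mean in each of the 7 livers (columns), in colour on a scale centred on 0. Trpm6-deficient 3 is below the control mean in 24 genes, control 3 in 28 and control 4 in 26, while control 1 is above it in 26 and control 2 in 27.

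Much of the spread ran across the groups. Trpm6-deficient 3 was the lowest liver for 18 of the 35 genes and control 3 for 10, while control 1 was the highest for 13 and Trpm6-deficient 1 for 8. Within the control group the mice of 12 weeks lay above those of 13 weeks for 21 of the 35 genes without overlap, and below for 0. Over all probe sets these shares were 14.2% and 15.6%. Acadvl had 11.19 and 10.64 at 12 weeks and 10.49 and 10.55 at 13 weeks, and Hadhb had 11.09 and 10.94 against 10.54 and 10.62. With 2 mice per age, age cannot be told apart from other differences between these mice. Among the Trpm6-deficient livers, Trpm6-deficient 1 and 3, both of 13 weeks, lay at opposite ends.

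The mean difference of the 35 genes from the control mean was 0.13, 0.08, -0.15 and -0.06 in controls 1 to 4 and 0.13, 0.04 and -0.19 in Trpm6-deficient 1 to 3. The groups overlapped, with a mean of 0.00 ± 0.17 (SD, n = 3) in Trpm6-deficient livers. For the peroxisomal genes the Trpm6-deficient values were 0.08, -0.13 and -0.50, and controls spanned -0.16 to 0.19. For the mitochondrial genes they were 0.18, 0.10 and -0.10, against -0.12 to 0.13. Both measured Acsl genes together, without Acsl1 and Acsl3, gave 0.10, 0.22 and 0.42. Trpm6-deficient 3 thus had the highest Acsl mean and the lowest peroxisomal mean. In controls 1 to 4 the Acsl means of 0.22, 0.14, -0.22 and -0.14 had the signs of the peroxisomal means, which were 0.19, 0.10, -0.16 and -0.12.

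Markers of other liver cells moved across the same livers. The mean difference of the 6 Kupffer cell markers, all measured, ran from -0.59 in control 1 to 0.34 in control 3, and from -0.34 to -0.22 in Trpm6-deficient livers. The 5 sinusoidal endothelial markers ran from -0.62 in control 1 to 0.38 in control 2, and from -0.41 in Trpm6-deficient 1 to 0.00 in Trpm6-deficient 2. Control 1 and Trpm6-deficient 1 were the livers most often highest in fatty acid oxidation genes, and had the lowest endothelial and Kupffer cell values. This did not hold across the livers. Control 2, highest for 7 genes, had an endothelial value of 0.38 and a Kupffer cell value of 0.18. Trpm6-deficient 3, lowest for 18 genes, had -0.27 and -0.22. The hepatocyte list stayed between -0.06 and 0.10 in all 7 livers. Of 6 stellate cell markers 2, and of 4 measured cholangiocyte markers 1, were higher at an unadjusted p of 0.05, where 3.85% of all probe sets were. The cholangiocyte mean was -0.03 to 0.05 in control and 0.04 to 0.22 in Trpm6-deficient livers. The lymphocyte and neutrophil list ran from -0.17 to 0.10 in control and from -0.16 to 0.02 in Trpm6-deficient livers. The adipocyte and muscle lists stayed between -0.13 and 0.09. The part of other cells in the values above was not tested.

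**Figure D4:**
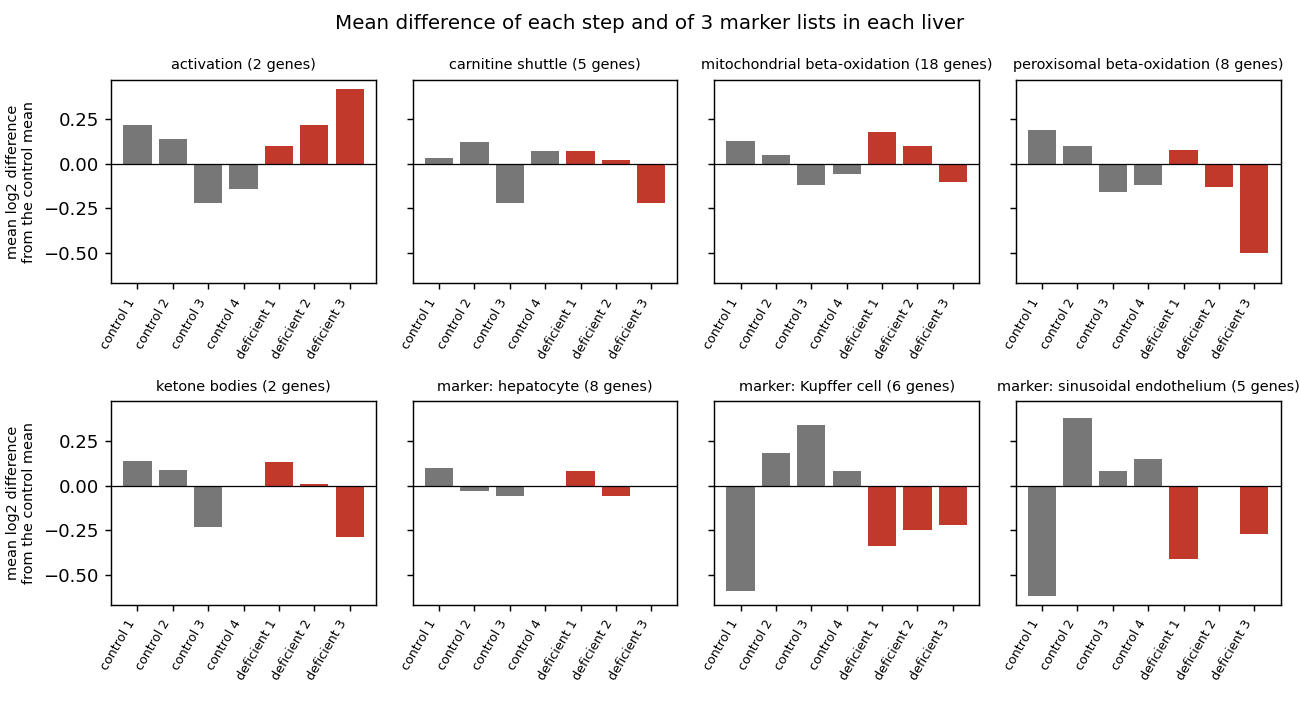
Mean over the genes of each step of the log2 difference from control and of 3 marker lists, 1 bar per liver (grey, control; red, Trpm6-deficient), all on 1 vertical scale. The peroxisomal bar of Trpm6-deficient 3 reaches -0.50, and the Kupffer cell and endothelial bars of control 1 reach -0.59 and -0.62.

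Other genes of the pathway were taken from a list of 37, of which 33 were measured. At an adjusted p of 0.1, 0 passed limma's test. Without adjustment, at 0.05, 1 lay higher and 4 lay lower in Trpm6-deficient livers, where 3.85% and 3.03% of all probe sets did. Of the 4, 3 encode peroxisomal proteins and were among the 7 genes measured for other peroxisomal steps. Scp2, whose products include the thiolase for branched chains and a sterol carrier, was at 13.47, 13.18, 13.15 and 13.41 in control and at 12.83, 12.36 and 11.98 in Trpm6-deficient livers. The groups were apart and Trpm6-deficient 3 was again the lowest, with a log2 change of -0.91 (SE 0.20, adjusted p = 0.386). Amacr, the racemase that prepares branched chains, had a change of -0.35 (SE 0.08, adjusted p = 0.393), and Phyh, which opens the alpha-oxidation of phytanic acid, one of -0.24 (SE 0.09, adjusted p = 0.672). The fourth was Fabp1, the fatty acid binding protein of hepatocytes, at -0.53 (SE 0.21, adjusted p = 0.697), with Trpm6-deficient 3 at 12.56 and the others both at 13.35. The higher gene was Mcee, of propionate breakdown, at 0.51 (SE 0.18, adjusted p = 0.665).

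Of 12 regulators of fuel use, all measured, 0 passed at an adjusted p of 0.1 from limma. Pdk4, the kinase that shuts pyruvate dehydrogenase and so spares glucose when fat is burned, was at 8.89, 8.56, 7.59 and 9.17 in control and at 10.24, 10.10 and 9.89 in Trpm6-deficient livers. All Trpm6-deficient livers were above all controls, of which control 3 was the lowest, and the log2 change was 1.52 (SE 0.37, adjusted p = 0.429). Ppargc1a, the coactivator that drives mitochondrial and fasting genes, was at 8.91, 9.18, 8.49 and 8.81 against 9.84, 9.25 and 10.28, a change of 0.94 (SE 0.27, adjusted p = 0.562). Ppara itself had a change of -0.42 (SE 0.18, adjusted p = 0.754), and Rxra, its partner, one of -0.26 (SE 0.11, adjusted p = 0.724). At an unadjusted p of 0.05 or less, Pdk4 and Ppargc1a were higher and Rxra was lower, where 3.85% and 3.03% of all probe sets were. Fgf21, a hormone gene that PPARA induces in fasting, had a change of 0.01 (95% interval -0.25 to 0.26). Its means of 6.05 in control and 6.06 in Trpm6-deficient livers lay below every array median, where a difference may be shrunk.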

How the data were processed

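Liver RNA was profiled on Affymetrix GeneChip Mouse Gene 1.0 ST arrays. Deposited log2 values, with 2 decimals, are the authors' RMA summaries from Affymetrix Expression Console 1.4.0 after correction for background and normalization across arrays. RMA shrinks differences of dim probe sets. The values were used as deposited, with no further filter. Groups came from the labels. All probe sets were fitted with limma 3.58.1 in R 4.3.3, without a covariate, and p-values were adjusted over all 35556 probe sets by the method of Benjamini and Hochberg. The fit was checked on simulated data. The platform annotation named the genes (21789 probe sets with 1 symbol, 1621 with several, 12146 with none), and the brightest probe set of a symbol was kept. Every member is described by step, and values in every liver are given where a member passed a threshold, its groups did not overlap or it holds an entry step. Other pathway genes and regulators are named at an unadjusted p of 0.05 or less. Ppara, Fgf21, the neighbours of Acad10 and the further members given liver by liver were chosen after their values were seen. Members and lists were chosen with earlier results of these data known. Arrays carry no read depth, so their number limits the precision. Alternatives were other scalings, priors, weights, filters, probe set choices, age, the replicate number, the methods' own test and leaving out each liver. Promoter sequences are RefSeq's, in GRCm38.p6. Scanner files were not used here.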

Additional observations from a re-analysis of the deposited data

Results flagged for a closer look

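For Crot, control 3 stood apart from the other controls, at 11.61 against 12.68 to 12.87. For Acadl, control 1 stood apart, at 11.43 against 10.71 to 10.76. Of the 35 measured members 2 had such a control value by Dixon's test, and chance alone gives about 1 in 20. The Trpm6-deficient group, with 3 livers, was not tested in this way.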

How the results depend on the processing

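The number of members past an adjusted p of 0.1 stayed at 1 with the filter on dim probe sets, with the mean of all probe sets of a gene and with array weights. It was 0 after quantile normalization, after centring each array on its median, with a trend and robust prior, with age as a covariate, with only the mice of 13 weeks, with the methods' t-test and at an adjusted p of 0.05. It was 0 to 0 when each liver was left out in turn, which also leaves fewer samples. The log2 change of Acad10 was 0.42 to 0.48 throughout, with adjusted p from 0.0443 to 0.788. The number past an unadjusted p of 0.05 was 6 with only the mice of 13 weeks, where 4 livers remained, and 8 to 11 when each liver was left out. When a liver was left out, the median log2 change ran from -0.12 to 0.06 over all members, from 0.16 to 0.32 for activation, from -0.15 to 0.02 for the carnitine shuttle, from -0.02 to 0.09 for the mitochondrial genes, from -0.39 to -0.06 for the peroxisomal genes and from -0.14 to 0.07 for the ketone body genes. The highest value came without Trpm6-deficient 3 for all of these except activation, where that liver gave the lowest. With only the mice of 13 weeks the peroxisomal median was -0.14 and that of all members 0.00. Cpt1a, Acad10, Hadh, Ehhadh and Pex11a passed the unadjusted threshold in all 17 alternative fits, Crat and Eci1 in 16, Acsl5 in 14, Echs1 in 11, Acox3 in 7 and Cpt2 in 0. With the replicate number as a block, 0 members passed the adjusted and 14 the unadjusted threshold, 6 higher and 8 lower. Deviations from the group mean correlated at 0.33, 0.26 and 0.09 between livers of the same number. Trpm6-deficient 1 and 2 matched the control of their own number best, while Trpm6-deficient 3 matched control 4 best. Control 1 was 12 weeks old and Trpm6-deficient 1 was 13 weeks old. The numbers were therefore not taken as pairs.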
